A study of Mus musculus with 6 samples.

Results

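A set of 8 genes, out of 23282 rows of the count tables, was followed in brown adipose tissue (BAT) of wild-type and Letmd1 KO mice: Dio2, Thra, Thrb, Hsd11b1, Nr3c1, Fkbp5, Rxra and Nr1h3. They were selected by symbol, as the genes that activate thyroid hormone and glucocorticoid inside the cell and the nuclear receptors through which these and related ligands act. BAT was taken from 3 wild-type and 3 Letmd1 KO male mice of the C57BL/6N strain at 5 weeks of age. Each mouse gave 1 library. The KO mice were homozygous for a knockout-first Letmd1 allele derived from 1 embryonic stem cell clone, in which a reporter and selection cassette sits in an early intron. The gene was disrupted in the whole body, so that other tissues and circulating hormones could differ too; hormone levels were not analysed here. Sequencing was by QuantSeq, a method that primes at the poly(A) tail and reads only the mRNA's 3′ end, so that long genes do not collect more reads than short ones, and the authors deposited read counts per gene. Levels are given as CPM, the count of a gene relative to the size of its library after TMM scaling in edgeR.

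Brown adipocytes make much of their active thyroid hormone themselves. The selenoenzyme type 2 deiodinase, encoded by Dio2, converts thyroxine to triiodothyronine, which binds the receptors encoded by Thra and Thrb and induces thermogenic and lipogenic genes. Glucocorticoids are handled in a similar way: 11β-hydroxysteroid dehydrogenase 1, encoded by Hsd11b1, regenerates the active hormone inside the cell, the glucocorticoid receptor encoded by Nr3c1 binds it, and Fkbp5, a chaperone that lowers the affinity of the receptor, is one of the genes it induces. Thyroid hormone receptors and the oxysterol receptor LXRα, encoded by Nr1h3, bind DNA as heterodimers with a retinoid X receptor such as that encoded by Rxra.

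The libraries held between 6669577 and 14574273 counts, and a floor of 3 counts corresponded to between 0.176 and 0.397 CPM, which covers counting error only. The lowest count of any of the 8 genes in a mouse was 73. Counts of Letmd1 were 5658, 6490 and 5266 in wild-type mice against 0, 0 and 1 in KO mice, so the labels of all 6 mice matched. Adipocyte markers, among them Ucp1 and Cidea of brown adipocytes, were present in every mouse, but 6 of 8 were lower in Letmd1 KO BAT. Their summed level was 43350 to 50350 CPM in wild-type against 14200 to 22240 CPM in KO mice. Fabp4 was the largest part of this sum, with means of 28020 CPM in wild-type and 10460 CPM in KO mice. All 11 tested macrophage markers were higher (summed 182.2 to 243.6 CPM against 1364 to 3284), as were 9 of 10 fibroblast markers (1490 to 2012 against 4113 to 6908) and 5 of 6 Schwann cell markers (42.51 to 74.74 against 126.4 to 199.2), while 3 of 8 endothelial markers were lower (580.3 to 695.2 against 382.1 to 502.8). Of all genes tested, 22.3% were lower and 23.7% higher at an edgeR adjusted p under 0.05. In bulk tissue, fewer cells of a type and less RNA per cell cannot be told apart. The part of cell composition in the changes below was not tested. Some libraries stood apart: wild-type replicate 2 held skeletal muscle transcripts (365.7 CPM over 11 markers, against 8.214 and 10.24 in the other wild-type mice and 269.8 to 1096 in KO mice, with 1 of 11 higher in edgeR), KO replicate 2 had the highest macrophage sum, and wild-type replicate 3 was the lowest wild-type mouse for all 5 erythroid markers, which differed little between the genotypes (9963 to 18520 against 10000 to 13670 CPM, 0 of 5 past the threshold in edgeR, 1 at an unadjusted p under 0.05 and 0 with DESeq2).

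Promoter windows were taken for Dio2 and Hsd11b1, the members with the largest fold changes. Another was taken for Fkbp5, the member that differed most among wild-type mice. All are printed here from RefSeq on GRCm38.p6. Each runs 5′ to 3′ along the gene's minus strand, from 250 bases before to 50 bases after an annotated transcription start. Windows of 6 of the 8 genes were searched, 9 windows in all, and no window of the other genes was analysed here. The window of Dio2 is chr12:90738989-90739288, and capitals mark the full cyclic AMP response element TGACGTCA. The windows of Hsd11b1, chr1:193242311-193242610, and of Fkbp5, chr17:28486100-28486399, have no capitals. These 2 windows lie inside the GENCODE spans of their genes given below, at internal starts. The Dio2 window lies upstream of its gene's span.
Dio2: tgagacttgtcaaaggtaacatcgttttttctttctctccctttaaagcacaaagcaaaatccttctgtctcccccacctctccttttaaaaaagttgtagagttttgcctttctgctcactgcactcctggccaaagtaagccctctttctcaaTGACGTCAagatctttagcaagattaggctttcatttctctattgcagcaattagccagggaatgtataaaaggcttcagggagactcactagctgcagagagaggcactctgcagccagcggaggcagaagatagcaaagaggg
Hsd11b1: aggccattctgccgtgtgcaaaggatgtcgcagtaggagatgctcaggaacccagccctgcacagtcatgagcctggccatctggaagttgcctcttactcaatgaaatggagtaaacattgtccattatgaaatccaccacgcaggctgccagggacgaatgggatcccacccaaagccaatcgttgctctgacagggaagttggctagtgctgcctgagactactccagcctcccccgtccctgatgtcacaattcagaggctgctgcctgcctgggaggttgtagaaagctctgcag
Fkbp5: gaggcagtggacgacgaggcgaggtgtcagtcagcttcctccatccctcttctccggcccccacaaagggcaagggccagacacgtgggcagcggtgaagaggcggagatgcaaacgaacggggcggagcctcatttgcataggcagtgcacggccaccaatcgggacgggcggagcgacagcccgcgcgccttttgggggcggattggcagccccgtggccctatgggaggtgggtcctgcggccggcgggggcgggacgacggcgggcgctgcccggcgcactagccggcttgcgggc
Both strands of each window were searched for TGACGTCA, for its core TGACG, with which it overlaps, for AGAACA, a core motif of the glucocorticoid receptor, and for AGGTCA, a core motif of thyroid hormone, retinoid and oxysterol receptors. The full element stood 95 bases before the Dio2 start, and 1.79% of the 32851 windows of all genes held one. The core was found in 20.8% of all windows, AGAACA in 19.0% and AGGTCA in 16.3%, so that a match to these short motifs is common. The Hsd11b1 and Fkbp5 windows matched none of them, which says only that these letters are not in these 300 bases. GC content was 44.7% for Dio2, 54.7% for Hsd11b1 and 70.7% for Fkbp5, against a median of 52.7% over all windows.

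Of the 8 genes, 5 fell in Letmd1 KO BAT and 0 rose. Hsd11b1 and Dio2 fell most, to 16.2% and 18.1% of their wild-type mean CPM, followed by Thrb (34.1%), Nr1h3 (50.3%) and Nr3c1 (77.2%), whereas Rxra, Thra and Fkbp5 did not pass the threshold of an adjusted p of 0.05 (edgeR's quasi-likelihood test, Benjamini-Hochberg adjustment over the 12995 genes tested). Over all genes, 22.3% passed this threshold as lower and 23.7% as higher in KO mice. All 8 genes were tested, 6 were lower and 0 higher at an unadjusted p under 0.05 in edgeR, and with DESeq2 6 were lower and 0 higher after adjustment. For the same 5 genes every KO mouse lay below every wild-type mouse, a pattern found for 27.2% of the genes tested. The median log2 fold change (KO minus wild type) of the 8 genes was -0.73, beside 0.03 over all genes tested. With library size alone in place of TMM the median of all genes was 0.45 and that of the 8 genes was -0.31. Nr3c1 then turned to 0.04 and was not called, and the other 4 calls held.

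**Figure D1:**
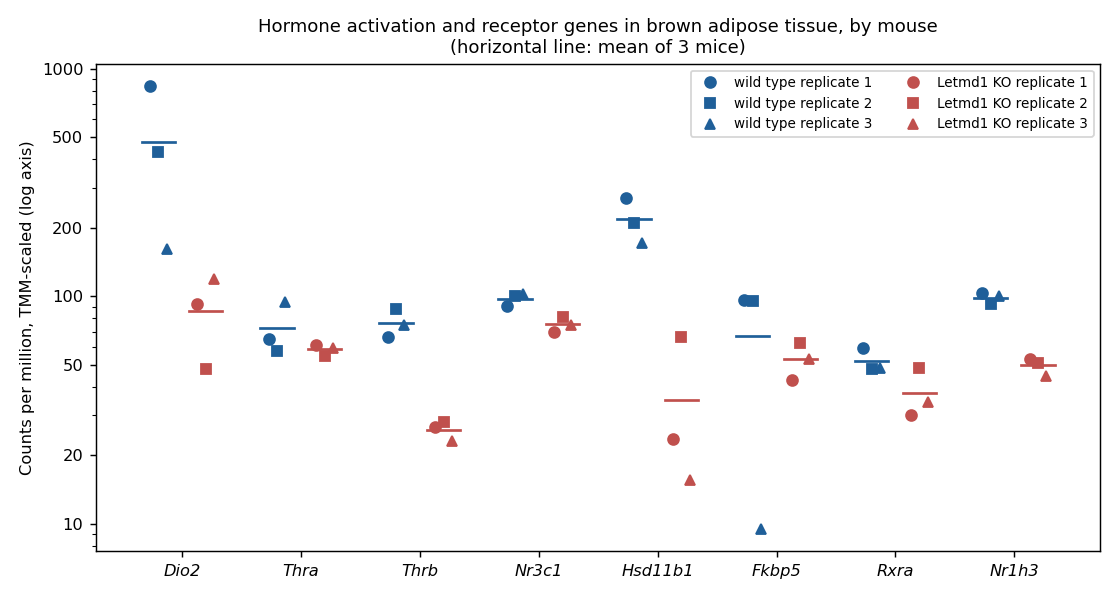
Level of each of the 8 genes in every mouse, in TMM-scaled CPM on a log axis, with wild-type mice in blue, Letmd1 KO mice in red, a symbol shape for each replicate and a horizontal line at the mean of 3 mice. The KO points lie below all wild-type points for Dio2, Thrb, Nr3c1, Hsd11b1 and Nr1h3, and wild-type replicate 3 stands far below the other mice for Fkbp5 at 9.52 CPM.

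Dio2 (chromosome 12, 90724552 to 90738438 on the minus strand in GENCODE on GRCm38) had the highest mean of the 8 genes in both genotypes. It was not the highest in every mouse: Hsd11b1 was above it in wild-type replicate 3, at 171.2 CPM. In KO replicate 2 only Thrb was below Dio2. The level of Dio2 was 839.6, 431.7 and 161.7 CPM in wild-type mice and 92.8, 47.9 and 118.5 CPM in KO mice. Its counts were between 362 and 7788. The groups did not overlap, but the lowest wild-type mouse was close to the highest KO mouse. The mean fell from 478 ± 341 to 86.4 ± 35.7 CPM (SD, n = 3 each). The log2 fold change was -2.46 with a standard error of 0.53 and a 95% interval of -3.66 to -1.27 (edgeR adjusted p = 0.00462). The size of the change depended on single mice. Without wild-type replicate 1 it was -1.78 (edgeR adjusted p = 0.0136), and without wild-type replicate 3 it was -2.89 (edgeR adjusted p = 0.000375).

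The spread of Dio2 among mice of one genotype was wide. Its highest wild-type value was 5.19-fold the lowest, and its highest KO value was 2.47-fold the lowest. The SD of log2 CPM was 1.20 among wild-type mice, above that of 98.4% of genes tested, and 0.67 among KO mice, above that of 94.4%. The median SD over all genes tested was 0.21 in wild-type and 0.19 in KO mice. Expressed on the linear scale, the coefficient of variation of CPM was 71.5% in wild-type and 41.4% in KO mice. With 3 mice a group this spread rests on single animals: the wild-type SD was 0.68 without replicate 3 and 1.68 without replicate 2, and the KO SD was 0.25 without replicate 2. The order of the wild-type mice for Dio2 was that of their erythroid (18520, 14150 and 9963 CPM) and fibroblast marker sums (2012, 1828 and 1490 CPM). It was not that of their adipocyte, macrophage, endothelial, Schwann cell or skeletal muscle sums, the last of which was high in replicate 2. The part of cell composition in this spread was not tested. Among the 8 genes only Fkbp5 had a wider SD in wild-type mice (1.91, above 99.7% of genes tested) and only Hsd11b1 had a wider SD in KO mice (1.07, above 98.7%). The other 5 genes had SDs between 0.08 and 0.37 in either genotype, so that the smaller fold changes of Thrb, Nr1h3 and Nr3c1 were measured with standard errors of 0.14, 0.11 and 0.11.

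**Figure D2:**
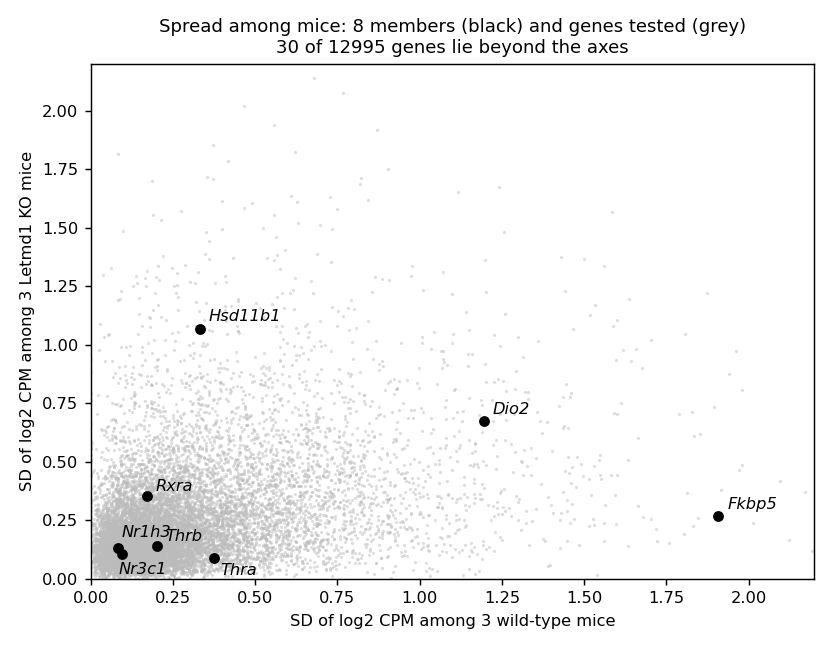
SD of log2 CPM among the 3 wild-type mice (horizontal axis) and among the 3 Letmd1 KO mice (vertical axis) for the 8 genes, in black with names, and for the other genes tested, in grey, of which 30 lie beyond the axes. Fkbp5 and Dio2 lie far to the right, at 1.91 and 1.20 in wild type, and Hsd11b1 lies highest of the 8, at 1.07 in Letmd1 KO mice.

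The 5 genes whose log2 CPM followed that of Dio2 most closely over the 6 mice, among 10327 tested genes with a mean of at least 50 counts, were Ier3ip1 (Pearson r = 0.997), Bod1 (0.993), Men1 (0.993), Ykt6 (0.989) and Prkar1a (0.988). Prkar1a encodes a regulatory subunit of cyclic AMP-dependent protein kinase, and Men1 encodes the nuclear scaffold protein menin. This is a description over 6 points that also share the genotype difference, without a test. Their levels moved far less than Dio2: Prkar1a was at 354.1, 327.8 and 286.1 CPM in wild-type and 260.1, 252.1 and 268.2 CPM in KO mice.

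The 2 thyroid hormone receptor genes differed in their values. Thrb (chromosome 14, 17660261 to 18038090, plus strand) was at 66.3, 87.5 and 74.7 CPM in wild-type and 26.6, 28.1 and 23.2 CPM in KO mice. The groups were far apart, and the mean fell from 76.2 ± 10.7 to 26.0 ± 2.47 CPM (SD, n = 3 each). The log2 fold change was -1.56 (standard error 0.14, 95% interval -1.88 to -1.23, edgeR adjusted p = 3.95e-05), and single mice left out moved it no further than -1.65 and -1.46. Thra (chromosome 11, 98740638 to 98769006, plus strand) was at 64.9, 57.6 and 94.7 CPM in wild-type and 61.3, 54.5 and 59.5 CPM in KO mice. The Thra values overlapped, with wild-type replicate 3 above all other mice. The log2 fold change of Thra was -0.31 with a 95% interval of -0.70 to 0.09 (edgeR adjusted p = 0.188), so a fall of up to 0.70 on the log2 scale is within its error, and it was 0.12 with library size alone. Exons of Thra share 263 bases with Nr1d1, which encodes the circadian repressor REV-ERBα and lies on the opposite strand. Nr1d1 was at 95.6, 103.0 and 55.0 CPM in wild-type and 23.7, 33.2 and 33.5 CPM in KO mice (edgeR adjusted p = 0.00088). Whether the counting used strand is not given in the sources used here, so reads from the shared bases cannot be told apart. A single row per symbol also does not separate the hormone-binding and the non-binding isoform of Thra.

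The ratio of Thra to Thrb counts within a mouse, which no library scaling can move, was 0.979, 0.658 and 1.27 in wild-type and 2.30, 1.94 and 2.56 in KO mice. The groups did not overlap, and the mean log2 ratio was 1.27 higher in Letmd1 KO BAT (two-sided exact permutation test, p = 0.1, adjusted p = 0.4 over 8 pairs of genes). A comparison of 3 mice with 3 cannot give a p below 0.1. Leaving out each mouse in turn gave differences between 1.02 and 1.49. The ratio of Dio2 to Thra was 12.9, 7.49 and 1.71 in wild-type and 1.51, 0.879 and 1.99 in KO mice, and the ratio of Dio2 to Thrb was 12.7, 4.93 and 2.16 against 3.48, 1.71 and 5.10. Both overlapped between the genotypes, the ratio to Thra through wild-type replicate 3 alone (two-sided exact permutation tests, p = 0.2 and 0.5). The mean log2 ratio of Dio2 to Thrb was 0.72 lower in KO mice.

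**Figure D3:**
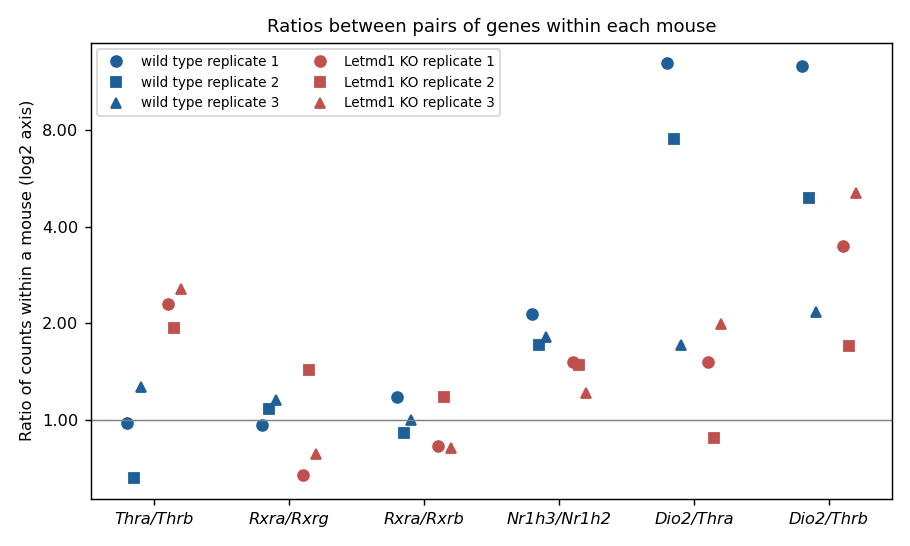
Ratio of the counts of 2 genes within each mouse on a log2 axis, for 6 of the 8 pairs compared, with wild-type mice in blue and Letmd1 KO mice in red. The KO mice lie above all wild-type mice for Thra/Thrb (1.94 to 2.56 against 0.658 to 1.27) and below them for Nr1h3/Nr1h2, and the genotypes overlap for the other pairs drawn.

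Other genes of thyroid hormone metabolism and transport moved in both directions. Of 16 listed genes 12 were tested. Among these 5 fell, 4 rose and 3 did not pass the threshold, with a median log2 fold change of -0.26. The shares over all genes tested were 22.3% lower and 23.7% higher. Sephs2, the enzyme that makes the selenium donor used to build selenoproteins such as the deiodinases, fell from 262.8, 233.7 and 215.1 CPM to 59.6, 68.8 and 59.3 CPM (log2 fold change -1.92, edgeR adjusted p = 7.51e-06). Sepsecs, which makes selenocysteyl-tRNA, had a log2 fold change of -1.06 (edgeR adjusted p = 0.0314), and this call was lost when any mouse but wild-type replicates 2 and 3 was left out, and with library size alone. Eefsec, the elongation factor that delivers selenocysteyl-tRNA, named after its values were seen, rose by 1.24 (edgeR adjusted p = 0.0155). Without wild-type replicate 1 or KO replicate 2 the edgeR adjusted p was 0.0503, and under quantile normalization with limma the adjusted p was 0.0694. Slc7a8, an amino acid transporter that also carries thyroid hormones, rose from 4.85, 3.39 and 1.70 CPM to 13.0, 16.5 and 18.2 CPM (log2 fold change 2.25, edgeR adjusted p = 0.000552). Slc7a5, a related transporter, had 0, 2 and 1 counts in wild-type and 31, 24 and 58 in KO mice, and was at least 9.68-fold higher against a floor of 3 counts in each wild-type mouse. The type 1 deiodinase gene Dio1 had no count in any mouse, and the type 3 deiodinase gene Dio3 had 1 count in all 6 mice together, so that neither was detectable at this depth.

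Of 15 listed genes that thyroid hormone is known to induce, 14 were tested. Among these 6 fell, 2 rose and 6 did not pass the threshold (median log2 fold change -0.70, beside 0.03 over all genes tested). The shares over all genes tested were 22.3% lower and 23.7% higher. Ucp1, the uncoupling protein of brown fat, fell from 6268, 5841 and 6874 CPM to 414.8, 254.9 and 476.3 CPM (log2 fold change -4.05, edgeR adjusted p = 6.96e-06). Fasn, fatty acid synthase, fell from 17690, 19450 and 21150 CPM to 817.6, 3354 and 691.3 CPM (log2 fold change -3.58, edgeR adjusted p = 0.000898). Cpt1a, which brings fatty acids into mitochondria, rose by 2.29 on the log2 scale (edgeR adjusted p = 2.38e-05), and Hr, a corepressor of thyroid hormone receptors, rose by 0.76 (edgeR adjusted p = 0.00708). Wild-type replicate 3, the wild-type mouse with the least Dio2, had the highest wild-type values of Ucp1 and Fasn. Thus, among the 3 wild-type mice, the order of Dio2 was not the order of these 2 genes. Cpt1a was in the order of Dio2, at 8.52, 8.38 and 6.26 CPM, as were Ppargc1a and Atp2a2, named after their values were seen. Replicate 3 was the lowest wild-type mouse for 4 of the 14 tested genes (28.6%), beside 36.3% of all genes tested. Whether these genes follow Dio2 among mice was not tested.

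In the glucocorticoid branch, both enzymes of local hormone regeneration fell. Hsd11b1 (chromosome 1, 193221634 to 193264075, minus strand) was at 271.1, 209.9 and 171.2 CPM in wild-type and 23.6, 66.3 and 15.6 CPM in KO mice. The groups did not overlap, and KO replicate 2 retained the most. The mean fell from 217 ± 50.4 to 35.2 ± 27.3 CPM (SD, n = 3 each). Its log2 fold change was -2.66 (standard error 0.46, 95% interval -3.69 to -1.62, edgeR adjusted p = 0.00141). Without KO replicate 2 the log2 fold change was -3.49 (edgeR adjusted p = 2.05e-05), and the highest adjusted p with a mouse left out was 0.011. H6pd encodes the endoplasmic reticulum enzyme that supplies Hsd11b1 with NADPH. It was at 164.4, 149.9 and 115.9 CPM in wild-type and 30.9, 68.0 and 34.4 CPM in KO mice, again with no overlap and with KO replicate 2 the highest KO mouse (log2 fold change -1.70, edgeR adjusted p = 0.00104). In these 3 KO mice, replicate 2 was thus the highest for Hsd11b1, H6pd and Fasn and the lowest for Dio2. Of the KO mice it also had the highest macrophage (3284 CPM), adipocyte (22240 CPM) and fibroblast (6908 CPM) marker sums, though its Ucp1 was the lowest. Its endothelial, skeletal muscle, erythroid and Schwann cell sums were the lowest of the KO mice. The part of cell composition in these values was not tested. Hsd11b2, which inactivates glucocorticoid, had 0 counts in all wild-type mice and 12, 3 and 7 in KO mice, too few to pass the filter.

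Nr3c1 was at 90.2, 99.97 and 102.1 CPM in wild-type and 70.0, 80.9 and 74.7 CPM in KO mice. The groups did not overlap, though the difference was small: the mean fell from 97.4 ± 6.33 to 75.2 ± 5.45 CPM (SD, n = 3 each), a log2 fold change of -0.37 (standard error 0.11, edgeR adjusted p = 0.0183). This call was the weakest of the 5. Under quantile normalization with limma, the normalization named in the study's methods, the log2 fold change was -0.21 (adjusted p = 0.138). Leaving out wild-type replicate 2, KO replicate 1 or KO replicate 3 also ended the call, with edgeR adjusted p-values of 0.0529, 0.0713 and 0.0538. Nr3c2, the mineralocorticoid receptor gene, was at or below 1.29 CPM in every mouse, so that no ratio of Nr3c1 to Nr3c2 was read.

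**Figure D4:**
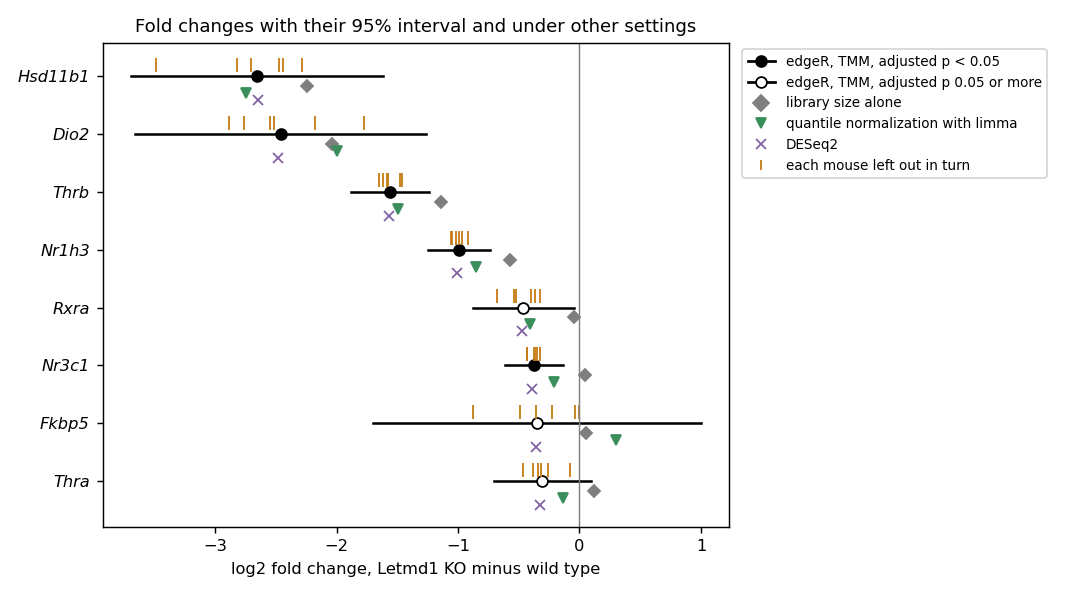
Log2 fold change of each of the 8 genes, Letmd1 KO minus wild type (circle, filled where the edgeR adjusted p was under 0.05). The line is the 95% interval worked out from the edgeR test. Also drawn are the values with library size alone, with quantile normalization and limma, with DESeq2 and with each mouse left out. Hsd11b1, Dio2, Thrb and Nr1h3 lie below 0 under all settings drawn. Nr3c1, Fkbp5 and Thra cross 0 with library size alone, and Fkbp5 also does with quantile normalization and limma.

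Fkbp5 (chromosome 17, 28399094 to 28517527, minus strand) separated a single mouse rather than the genotypes. It was at 96.2, 95.5 and 9.52 CPM in wild-type and 43.0, 62.3 and 53.0 CPM in KO mice. Wild-type replicate 3, with 73 counts, was 9.93% of the mean of the other 2 wild-type mice, and below all KO mice. The log2 fold change was therefore poorly determined, at -0.35 with a 95% interval of -1.70 to 0.998 (edgeR adjusted p = 0.661). Without wild-type replicate 3 it was -0.88 and passed the threshold (edgeR adjusted p = 0.00189), and with the replicate number as a block it was 0.06 (edgeR adjusted p = 0.943). The log2 ratio of Nr3c1 to Fkbp5 was -0.60 in KO minus wild-type mice with all mice (two-sided exact permutation test, p = 1.0) and 0.54 without wild-type replicate 3. Nr3c1 itself was not low in this mouse, at 107% of the mean of the other 2, and Hsd11b1 was at 71.2%.

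The low Fkbp5 of this mouse was set beside 18 further genes that glucocorticoids are known to induce. In wild-type replicate 3, 3 of the 18 (16.7%) were under 50% of the mean of the other 2 wild-type mice, compared with 598 of 12951 genes tested that could be compared (4.62%). This mouse was picked for its low Fkbp5, and whether these shares differ was not tested. Zbtb16, a transcription factor strongly induced by glucocorticoid, was at 134.8, 123.8 and 12.8 CPM in wild-type and 33.6, 49.6 and 55.7 CPM in KO mice, and was 9.88% of the other wild-type mice in replicate 3. Fam107a was at 19.5%, which rests on only 6 reads in replicate 3 (32 in replicate 1, 43 in replicate 2). Klf9 was at 49.1%, barely under the 50% limit. Tsc22d3 and Mt2 were at 54.3% and 55.7%, but Per1 was at 80.1%, and Sgk1, Angptl4 and Cdkn1a were at 145.8%, 139.5% and 156.0%, so that the glucocorticoid-induced genes did not move as one in this mouse. Of the circadian repressors, Nr1d1 was at 55.4% and Nr1d2 at 26.4%. Dio2 was at 25.4%. The genes in this paragraph were chosen after their values were seen, and the time of day, stress or handling at which each mouse was sampled was not analysed here.

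**Figure D5:**
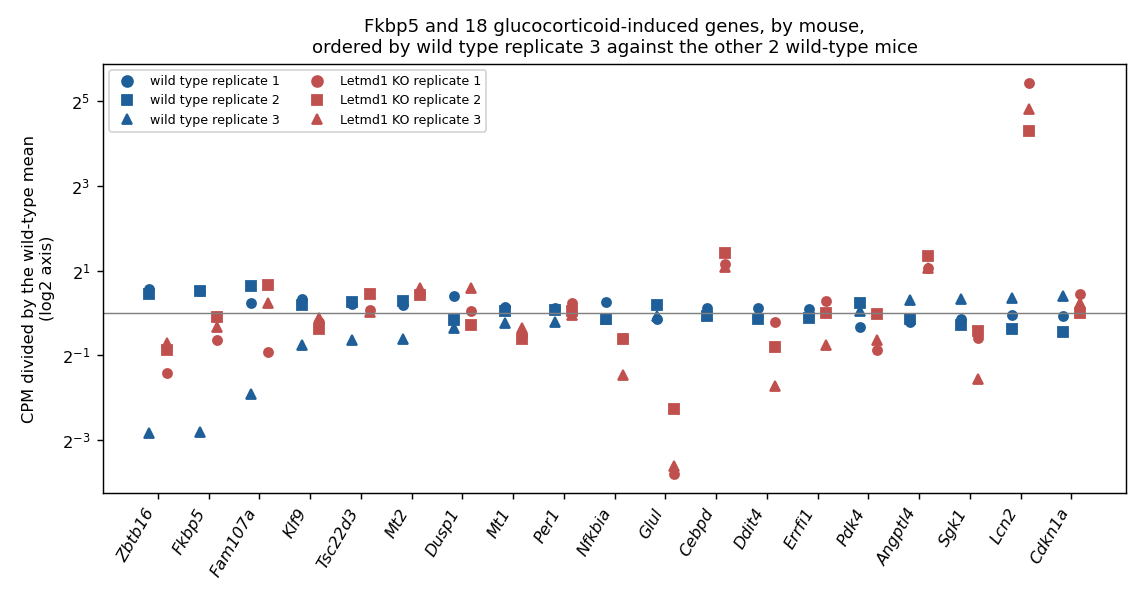
CPM of Fkbp5 and 18 glucocorticoid-induced genes in each mouse, divided by the mean of the 3 wild-type mice, on a log2 axis, with genes ordered from left to right by wild-type replicate 3 relative to the other 2 wild-type mice. Replicate 3 (blue triangle) is lowest for Zbtb16 and Fkbp5, where it lies at 9.88% and 9.93% of the other 2, and is above them for Sgk1 and Cdkn1a; Glul in KO mice lies far below and Lcn2 far above the wild-type mean.

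Between the genotypes, 4 of the 18 glucocorticoid-induced genes fell, 3 rose and 11 did not pass the threshold. Their median log2 fold change was -0.01, and of all genes tested 22.3% were lower and 23.7% higher. Glul, glutamine synthetase, fell from 4125, 5144 and 4305 CPM to 325.2, 932.5 and 368.6 CPM (log2 fold change -3.06, edgeR adjusted p = 0.000217), and Nfkbia, the inhibitor of NF-κB, fell by 0.84 on the log2 scale (edgeR adjusted p = 0.0132). The call of Nfkbia was lost without wild-type replicate 1 (edgeR adjusted p = 0.0509), under quantile normalization and with library size alone. Lcn2, which inflammation also induces, rose from 1.19, 0.954 and 1.57 CPM to 52.9, 24.2 and 34.7 CPM (log2 fold change 4.92, edgeR adjusted p = 1.29e-05), and Cebpd rose by 1.22 (edgeR adjusted p = 0.000108). With library size alone, 1 of the 18 was lower and 7 were higher, and under quantile normalization with limma 1 was lower and 5 were higher. Without wild-type replicate 1, 1 was lower and 3 were higher.

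Of 13 genes of glucocorticoid metabolism and the receptor's chaperones, 9 were tested. Among these 3 fell, 1 rose and 5 did not pass the threshold (median log2 fold change -0.18). The shares over all genes tested were 22.3% lower and 23.7% higher. Fkbp4, which promotes transport of the receptor to the nucleus and so opposes Fkbp5, fell from 267.8, 233.0 and 258.3 CPM to 150.6, 121.6 and 132.7 CPM (log2 fold change -0.91, edgeR adjusted p = 0.00026). Hsp90aa1, the inducible form of the chaperone that holds the receptor ready for hormone, rose by 0.64 on the log2 scale (edgeR adjusted p = 0.00594).

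Nr1h3 (chromosome 2, 91184061 to 91202834, minus strand) was at 103.4, 92.6 and 100.3 CPM in wild-type and 53.2, 51.1 and 44.7 CPM in KO mice. Both groups were tight and did not overlap, and the mean fell from 98.7 ± 5.57 to 49.7 ± 4.42 CPM (SD, n = 3 each). The log2 fold change was -0.99 (standard error 0.11, 95% interval -1.25 to -0.74, edgeR adjusted p = 0.000127) and stayed between -1.06 and -0.57 under all 13 alternatives, the value nearest 0 being that with library size alone. Its paralogue Nr1h2, which encodes LXRβ, was at 48.4, 54.0 and 55.3 CPM in wild-type and 35.2, 34.4 and 36.9 CPM in KO mice (log2 fold change -0.56, edgeR adjusted p = 0.00378), and with library size alone its call was lost at -0.14. The ratio of Nr1h3 to Nr1h2 counts within a mouse was 2.14, 1.71 and 1.81 in wild-type and 1.51, 1.48 and 1.21 in KO mice. The groups did not overlap, and the mean log2 ratio was 0.43 lower in KO mice (two-sided exact permutation test, p = 0.1, the smallest it can give; adjusted p = 0.4 over 8 pairs).

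Of 12 listed LXR target genes 11 were tested. Among these 4 fell, 3 rose and 4 did not pass the threshold, with a median log2 fold change of -0.27. The shares over all genes tested were 22.3% lower and 23.7% higher. Scd1, stearoyl-CoA desaturase, fell from 15520, 18200 and 10750 CPM to 1418, 4161 and 1461 CPM (log2 fold change -2.66, edgeR adjusted p = 0.000966), and Lpcat3, which remodels phospholipids, fell by 0.74 on the log2 scale (edgeR adjusted p = 0.00138). The call of Lpcat3 was lost with library size alone, where it was -0.31. Abcg1, a cholesterol exporter, rose from 4.85, 5.94 and 7.04 CPM to 18.02, 34.0 and 14.9 CPM (log2 fold change 1.90, edgeR adjusted p = 0.00128). Pltp, the phospholipid transfer protein, rose by 1.74 (edgeR adjusted p = 1.91e-05). KO replicate 2 was the highest KO mouse for both Abcg1 and Scd1. It had the highest macrophage, adipocyte and fibroblast marker sums of the KO mice, though its Ucp1, Cidea and Pparg were the lowest. The part of cell composition in these values was not tested. Abca1, another cholesterol exporter, named after its values were seen, fell from 152.9, 143.2 and 154.0 CPM to 85.2, 121.2 and 86.6 CPM (log2 fold change -0.62, edgeR adjusted p = 0.00701), a call that was lost with library size alone at -0.20. Of the 11 targets, 1 was lower and 4 were higher with library size alone.

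Rxra (chromosome 2, 27676440 to 27762957, plus strand) was at 59.1, 47.7 and 48.5 CPM in wild-type and 30.1, 48.6 and 34.5 CPM in KO mice. The genotypes overlapped through KO replicate 2 alone. The log2 fold change was -0.46 (standard error 0.19, 95% interval -0.88 to -0.04, edgeR adjusted p = 0.0682). It was -0.68 without KO replicate 2 (edgeR adjusted p = 0.00788), -0.48 with DESeq2 (adjusted p = 0.0489) and -0.04 with library size alone. The other retinoid X receptor genes lay nearby. Rxrb was at 49.9, 52.3 and 48.4 CPM in wild-type and 36.3, 41.2 and 42.3 CPM in KO mice (log2 fold change -0.33, edgeR adjusted p = 0.0456), a call that was lost in every leave-one-out fit except that without wild-type replicate 3, and that turned to 0.09 with library size alone. Rxrg was at 61.2, 44.1 and 42.1 CPM against 44.8, 33.9 and 43.9 CPM (log2 fold change -0.26, edgeR adjusted p = 0.253). The ratios of Rxra to Rxrb and to Rxrg overlapped between the genotypes, with mean log2 differences of -0.15 and -0.22 (two-sided exact permutation tests, p = 0.5 and 0.6).

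Of 15 listed partners and paralogues of the retinoid X receptors 12 were tested. Among these 3 fell and 0 rose in edgeR, with a median log2 fold change of -0.30. Over all genes tested 22.3% were lower and 23.7% higher. At an unadjusted p under 0.05 in edgeR 0 of the listed genes were higher, and 0 were higher with DESeq2. Nr4a2, an immediate early gene, fell most, from 44.0, 40.9 and 86.6 CPM to 13.6, 12.8 and 12.3 CPM (log2 fold change -2.14, edgeR adjusted p = 0.000273). Without wild-type replicate 3 1 gene of the list was higher, and with library size alone 1 was lower and 2 were higher.

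Some further lists were read for comparison, beside 22.3% lower and 23.7% higher over all genes tested. Of 17 sex steroid receptors and enzymes 9 were tested, and 5 fell and 1 rose (median log2 fold change -1.09). Hsd17b12, an enzyme of fatty acid elongation as well as of estrogen synthesis, changed by -1.67 (edgeR adjusted p = 0.000106), mitochondrial Hsd17b10 by -1.37 (edgeR adjusted p = 7.5e-05) and Srd5a3, which acts in protein glycosylation, by 1.52 (edgeR adjusted p = 8.34e-05). Esr1, the estrogen receptor gene, named after its values were seen, changed by -1.25, from 63.6, 66.8 and 68.7 CPM to 30.3, 28.3 and 25.2 CPM (edgeR adjusted p = 5.36e-05). Of 16 nuclear receptor coregulators, all tested, 3 fell and 2 rose, with a median of -0.03. Ppargc1b, a coactivator of mitochondrial genes, fell from 423.4, 425.7 and 431.7 CPM to 217.4, 149.9 and 236.2 CPM (log2 fold change -1.08, edgeR adjusted p = 0.000601). Hdac3, the deacetylase of the corepressor complex, had a log2 fold change of -0.47 (edgeR adjusted p = 0.0264); no call was made with library size alone, or when wild-type replicate 1 or 2, or KO replicate 1 or 3, was left out. The coactivator genes Prmt2 and Ncoa1 rose by 0.88 (edgeR adjusted p = 0.00242) and 0.43 (edgeR adjusted p = 0.0127), of which Ncoa1 was lost without wild-type replicate 2 or KO replicate 1 or 3. With library size alone, 1 coregulator was lower and 8 were higher. Of 23 other nuclear receptors 14 were tested, and 6 fell and 1 rose (median -0.45). Nr1d1 fell by 1.49 on the log2 scale, and Nr2c1 rose by 0.74 (edgeR adjusted p = 0.00759). With library size alone 2 of these 14 were lower and 1 was higher.

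The order of the 8 genes by mean level changed with genotype. QuantSeq reads each mRNA at its end only, so the order does not reflect the length of the genes. Other differences in how well a gene is counted were not tested. Multiple alignments were counted, and Thra shares exonic bases with Nr1d1. In wild-type mice the order from the highest mean was Dio2, Hsd11b1, Nr1h3, Nr3c1, Thrb, Thra, Fkbp5 and Rxra, and neighbours overlapped among the mice except that Hsd11b1 lay above Nr1h3 and Nr3c1 lay above Thrb. In KO mice the order was Dio2, Nr3c1, Thra, Fkbp5, Nr1h3, Rxra, Hsd11b1 and Thrb. There neighbours overlapped except that Nr3c1 lay above Thra. Hsd11b1 moved from second to seventh place, and its values, from 15.6 to 66.3 CPM, spanned those of Thrb and Rxra.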

How the data were processed

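BAT transcripts of 6 mice, 3 per genotype, were sequenced with QuantSeq. Reads (single-end, 75 bases) were aligned by the authors with Bowtie2, and unique as well as multiple alignments were counted with Bedtools. The deposited values are raw counts, 1 table per mouse. The submitters' processing notes name the mm10 build. The gene annotation and the use of strand are not given in the sources used here, and no batch was named. Samples were grouped by the labelled genotype.

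Tests were run in R 4.3.3 using edgeR 4.0.16 (quasi-likelihood test, TMM scaling, log2 CPM with a prior count of 2). Its default filter, at least 10 counts in enough mice and 15 in total, kept 12995 genes, over which Benjamini-Hochberg adjustment was made. The alternatives used limma 3.58.1 and DESeq2 1.42.0. Steps were tested on simulated data. Ratios within a mouse used a pseudocount of 0.5 counts. Depth sets a floor of 3 counts (0.176 to 0.397 CPM).

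The 8 genes, the 9 pathway lists and the 7 marker lists were chosen with earlier results of these data known. Named genes are the 8 genes, up to 2 called genes of each pathway list in each direction with the largest fold changes, the partners in the 8 ratios, and the 5 genes most correlated with Dio2. A gene that this rule selects is not reported here. Others are marked where named or serve as a check beside a named gene. Hsd17b8 and Sts were not analysed here. Gene positions came from GENCODE vM21 on GRCm38. The same-numbered mice of the 2 genotypes did not deviate together (correlations of 0.07, -0.11 and -0.09), and no label pairs them.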

Additional observations from a re-analysis of the deposited data

How the results depend on the processing

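The falls of Dio2, Hsd11b1, Thrb and Nr1h3 kept their direction and their call under all 13 alternatives, with log2 fold changes of -2.89 to -1.78, -3.49 to -2.25, -1.65 to -1.14 and -1.06 to -0.57. With library size alone the log2 fold change turned to 0.12 for Thra, 0.045 for Nr3c1 and 0.057 for Fkbp5. Fkbp5 was 0.30 under quantile normalization and 0.062 with the replicate block, in which it was not called. The replicate block gave 2713 genes lower and 2886 higher in all and changed none of the 8 genes' calls, but mice with the same number shared only a number. The number of the 8 genes called lower was between 4 and 6 under the alternatives and none was called higher. The log2 ratio of Nr3c1 to Fkbp5 was between -1.22 and 0.54 with each mouse left out. The SD of log2 CPM of Dio2 was between 0.68 and 1.68 among wild-type mice and between 0.25 and 0.92 among KO mice with each left out.

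With library size alone, which moved the share of calls that were higher from 51.6% to 81.2%, fewer list genes were lower and more were higher: 3 lower for thyroid hormone metabolism, 3 higher for glucocorticoid metabolism, 1 lower and 7 higher for glucocorticoid-induced genes, 4 higher for thyroid hormone-responsive genes, 1 lower for LXR targets, 1 lower and 2 higher for retinoid X receptor partners, 2 higher for sex steroid genes, 1 lower and 8 higher for coregulators, and 2 lower for other nuclear receptors. Under quantile normalization 2 glucocorticoid metabolism genes were higher, and 1 glucocorticoid-induced gene was lower and 5 were higher. Without a filter 2 glucocorticoid metabolism genes were higher, and at a mean of at least 50 counts 2 thyroid hormone metabolism genes were higher. With the replicate block 1 coregulator was lower. With each mouse left out, 2 to 4 thyroid hormone metabolism genes were higher, 1 to 5 glucocorticoid-induced genes were lower, 0 to 1 retinoid X receptor partners were higher, and 1 to 3 coregulators were lower and 1 to 2 higher. The cause of these changes was not tested, other than that library size alone leaves out the TMM factors. Depth did not limit the 8 genes, and 3 mice a group limit every spread given.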
